A study of Mus musculus with 12 samples.

Results

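Polycomb repressive complex genes were followed in mouse bone marrow cells carrying 1 of 4 retroviral constructs. The set held 10 genes, Ezh1, Ezh2, Eed, Suz12, Ring1, Rnf2, Cbx2, Cbx7, Cbx8 and Phc1, out of 19938 genes with a probe set of their own. Each gene was read from probe sets annotated to its symbol alone, and where there were several the brightest stood for the gene. All 10 genes were found, on 11 probe sets out of 23410 with a gene symbol, and only Eed had more than 1.

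The first 2 constructs carried the OM-LZ part of AF10, the stretch with an octapeptide motif and a leucine zipper through which AF10 binds the histone methyltransferase DOT1L. They were a fusion of 2 fragments, CALM(400-648) and AF10(677-758), here called the minimal fusion, and the CALM-AF10 fusion. The other two were CALM-AF10 ΔOM-LZ, which lacks that part, and MIG, the empty vector that served as the baseline. All groups shared their background: marrow of adult C57/BL6/C3H mice taken 4 days after 5-fluorouracil, 48 h of pre-stimulation, and co-culture with GFP+E86 virus producers irradiated with 40 Gy, in cytokines and protamine sulfate at 5 µg/ml. GFP-positive cells were sorted, and total RNA was taken 96 h after transduction. Each construct had 3 biological replicates on 1 Affymetrix array each. The labels do not say whether these came from separate animals, so the p-values measure the spread between these samples. The cells were a sorted bulk population with a vector-borne gene, so fewer cells of a type and less RNA per cell cannot be told apart.

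Polycomb proteins keep developmental genes silent. Polycomb repressive complex 2 (PRC2) methylates histone H3 at the site called H3K27, and Polycomb repressive complex 1 (PRC1) ubiquitinates histone H2A and compacts chromatin. In blood-forming cells both complexes are known for repressing the HOXA cluster and the cell cycle inhibitor locus Cdkn2a, and the PRC1 protein Bmi1 for stem cell self-renewal.

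The promoters of Ezh2, Suz12 and Ezh1 are shown because Ezh2 and Ezh1 are set against the cell cycle genes below, and because Ezh2 and Suz12 hold a word recognised by E2F, the factor family that drives S-phase genes. They come from RefSeq, build GRCm38.p6, and run 5′ to 3′ on the gene's strand from 250 bases before the listed start to 50 after it. Capitals mark the E2F word.
Ezh2, chr6:47594981-47595280, minus strand: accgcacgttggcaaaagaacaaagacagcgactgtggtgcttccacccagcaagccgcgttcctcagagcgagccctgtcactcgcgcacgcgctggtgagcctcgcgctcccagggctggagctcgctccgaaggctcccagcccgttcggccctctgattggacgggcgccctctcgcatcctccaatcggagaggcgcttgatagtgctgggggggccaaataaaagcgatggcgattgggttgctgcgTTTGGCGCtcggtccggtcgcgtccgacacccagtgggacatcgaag
Suz12, chr11:79992856-79993155, plus strand: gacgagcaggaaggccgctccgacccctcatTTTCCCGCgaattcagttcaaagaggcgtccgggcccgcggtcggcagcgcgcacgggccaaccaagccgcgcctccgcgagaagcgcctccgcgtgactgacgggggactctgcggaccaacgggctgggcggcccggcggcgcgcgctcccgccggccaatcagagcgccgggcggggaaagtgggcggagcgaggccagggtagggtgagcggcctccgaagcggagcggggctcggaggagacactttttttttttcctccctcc
Ezh1, chr11:101226414-101226713, minus strand: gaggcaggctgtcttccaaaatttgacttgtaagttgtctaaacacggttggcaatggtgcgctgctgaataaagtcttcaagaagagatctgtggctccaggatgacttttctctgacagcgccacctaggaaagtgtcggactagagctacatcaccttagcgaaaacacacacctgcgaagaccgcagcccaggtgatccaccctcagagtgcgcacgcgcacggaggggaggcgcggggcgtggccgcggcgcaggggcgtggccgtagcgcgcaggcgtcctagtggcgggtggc

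The E2F words searched on both strands were TTTCCCGC, TTTCGCGC, TTTGCCGC and TTTGGCGC. These words, and TTTGAA below, were chosen after the promoters and levels had been seen. They occurred in 2 of the 9 genes with a promoter entry, against 2.32% of 27025 promoters of the same length. In Ezh2 the word TTTGGCGC began 3 bases after the listed start, and in Suz12 TTTCCCGC began 219 bases before it. The listed Ezh2 start lies inside the gene's RefSeq span, chr6:47530274-47595270, so the window is not upstream of the whole gene. The same holds for the Cbx7 window, chr15:79932597-79932896, inside the span chr15:79915804-79971143. The word TTTGAA, known from promoters of mitotic genes, occurred in Eed, Suz12 and Cbx7, 3 of the 9 genes, against 18.1% of promoters; no other searched word overlapped it. A match describes the letters only.

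No Polycomb gene passed the test in any comparison. Differences were tested with limma over all 23410 probe sets, with Benjamini-Hochberg adjusted p under 0.05 as the threshold, and 0 of the 10 genes were called in each of 8 tests. Few probe sets of any kind were called: 0.0342% for the minimal fusion against MIG, 0% for CALM-AF10 against MIG, 0% for ΔOM-LZ against MIG, 0.00427% for the minimal fusion against CALM-AF10, 0.0171% for the minimal fusion against ΔOM-LZ and 0% for ΔOM-LZ against CALM-AF10. The mean of the constructs with OM-LZ against the mean of those without called 0.0128%, and the F test of any difference among the constructs 0.00854%. The estimates of the 10 genes lay between −0.36 and 0.27 log2 units over the 6 pairs of constructs, and with 3 arrays a group their 95% intervals were wide: that of Phc1 for the minimal fusion against MIG ran from −0.63 to 0.47, and that of Ring1 from 0.031 to 0.38. A p above the threshold therefore does not show that a gene was unchanged.

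**Figure D1:**
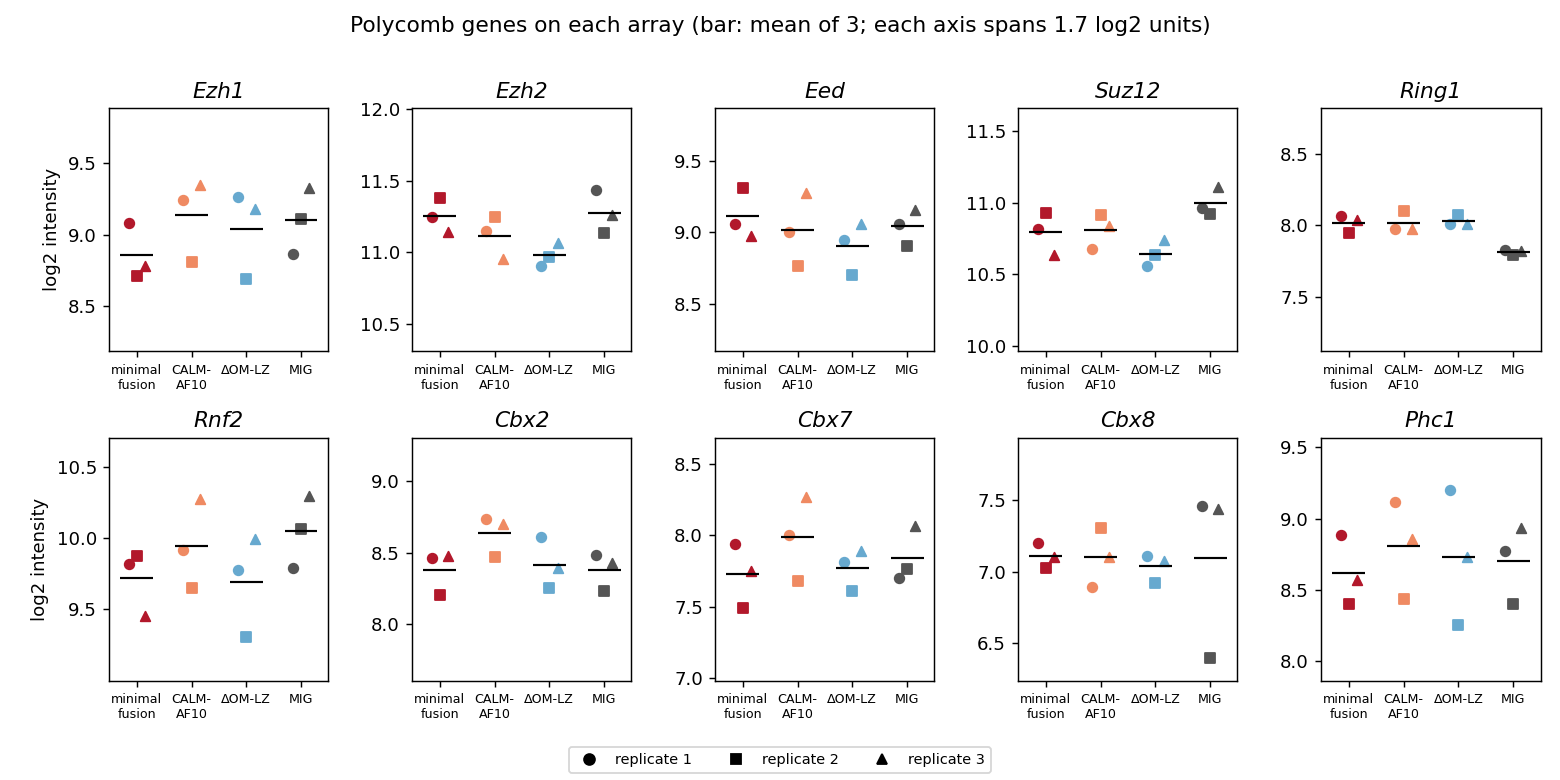
Log2 intensity of each Polycomb gene on the 12 arrays, by construct (minimal fusion, CALM-AF10, ΔOM-LZ, MIG). Points are single arrays, marker shapes are replicate numbers, bars are means of 3, and each axis spans the same number of log2 units. Ring1 is the gene whose 9 fusion arrays all lie above its 3 MIG arrays.

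Among the PRC2 genes, Suz12 and Ezh2 had their lowest means in ΔOM-LZ arrays, and Ezh1 had its lowest in minimal fusion arrays. Suz12, the scaffold on which PRC2 assembles, read 10.82, 10.93 and 10.63 log2 units in minimal fusion arrays and 10.67, 10.92 and 10.84 in CALM-AF10 arrays. It read 10.56, 10.64 and 10.74 in ΔOM-LZ arrays, against 10.96, 10.92 and 11.11 in MIG arrays. All ΔOM-LZ and all CALM-AF10 arrays lay below all MIG arrays, and the minimal fusion overlapped MIG. The log2 change was −0.35 for ΔOM-LZ against MIG (SE 0.108, unadjusted p = 0.0076, adjusted p = 0.999) and −0.19 for CALM-AF10 against MIG (SE 0.108, adjusted p = 0.9997).

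Ezh2, the main catalytic subunit in dividing cells, read 11.25, 11.38 and 11.14 in minimal fusion arrays and 11.15, 11.25 and 10.95 in CALM-AF10 arrays. It read 10.91, 10.97 and 11.07 in ΔOM-LZ arrays, against 11.43, 11.14 and 11.26 in MIG arrays. The ΔOM-LZ arrays were below all MIG arrays and below all minimal fusion arrays, and overlapped CALM-AF10. The log2 change was −0.29 for ΔOM-LZ against MIG (SE 0.114, unadjusted p = 0.0257, adjusted p = 0.999) and 0.27 for the minimal fusion against ΔOM-LZ (SE 0.114, unadjusted p = 0.0354, adjusted p = 0.9995). Between the minimal fusion and MIG its 95% interval ran from −0.27 to 0.23.

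The scores of 4 cell type lists did not overlap between the minimal fusion and ΔOM-LZ, the pair of constructs in which Ezh2 did not overlap either. Scores of the neutrophil primary granule, megakaryocyte, erythroid, B cell, T and NK cell, and fibroblast and producer line lists overlapped there. A list score is the mean log2 deviation of its genes from their mean over all arrays. The late neutrophil score (11 of 11 genes measured) ran from −0.82 to −0.30 in minimal fusion arrays and from 0.20 to 0.81 in ΔOM-LZ arrays. The monocyte and macrophage score (11 of 12 genes) ran from −0.59 to −0.44 in minimal fusion arrays and from 0.011 to 1.27 in ΔOM-LZ arrays. The mast cell score (8 of 8 genes) ran from −1.09 to −0.21 in minimal fusion arrays and from −0.058 to 1.31 in ΔOM-LZ arrays. In the other direction, the stem and progenitor score (15 of 17 genes) ran from 0.14 to 0.40 in minimal fusion arrays and from −0.53 to 0.0012 in ΔOM-LZ arrays. Their part in the Ezh2 difference was not tested. Between ΔOM-LZ and MIG, where Ezh2 and Suz12 also differed without overlap, all 4 scores overlapped: in MIG arrays they ran from −0.55 to 0.57 for late neutrophil, −0.47 to 0.96 for monocyte and macrophage, −0.41 to 1.68 for mast cell and −0.25 to 0.31 for stem and progenitor genes.

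Ezh1, the alternative catalytic subunit that prevails in resting cells, read 9.09, 8.71 and 8.78 in minimal fusion arrays and 9.25, 8.81 and 9.35 in CALM-AF10 arrays. It read 9.27, 8.69 and 9.18 in ΔOM-LZ arrays, against 8.86, 9.11 and 9.33 in MIG arrays. The groups overlapped in every pair, and each fusion construct had its low array at replicate 2. The minimal fusion differed from MIG by −0.24 log2 units, with a 95% interval of −0.67 to 0.19.

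Eed, the subunit that binds the methylated histone and stimulates the enzyme, read 9.06, 9.31 and 8.97 in minimal fusion arrays and 9.0, 8.76 and 9.28 in CALM-AF10 arrays. It read 8.95, 8.70 and 9.06 in ΔOM-LZ arrays, against 9.06, 8.91 and 9.15 in MIG arrays, and the groups overlapped in every pair. Its dimmer probe set gave another picture, at intensities below every array median (6.58 to 6.69). It read 4.85, 5.10 and 4.95 in CALM-AF10 arrays and 4.73, 4.95 and 5.01 in ΔOM-LZ arrays, against 4.66, 4.59 and 4.66 in MIG arrays, with no overlap in either case. Its log2 change was 0.33 for CALM-AF10 against MIG (SE 0.114, adjusted p = 0.833), where the brighter probe set gave −0.028 (SE 0.152). The probe sets thus disagreed in sign, and neither passed the test. The dimmer one lay close to the range of the B cell marker Cd79a on these arrays (4.4 to 4.88), so its sign carries little weight.

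Among the PRC1 genes of the set, Ring1 was the one that separated all fusions from the vector. Ring1 encodes RING1A, 1 of the 2 alternative E3 ligases of PRC1. It read 8.07, 7.95 and 8.03 in minimal fusion arrays and 7.97, 8.10 and 7.97 in CALM-AF10 arrays. It read 8.01, 8.08 and 8.01 in ΔOM-LZ arrays, against 7.83, 7.79 and 7.82 in MIG arrays. All 9 fusion arrays lay above all 3 MIG arrays, a pattern counted after Ring1 had been seen and found in 1.47% of all probe sets, in either direction. The log2 change was 0.20 for the minimal fusion, 0.20 for CALM-AF10 and 0.22 for ΔOM-LZ, each against the same MIG arrays (SE 0.078; adjusted p = 0.577, 0.876 and 0.999). As a ratio this was 1.15, 1.15 and 1.16. Between fusions Ring1 differed little: the minimal fusion minus CALM-AF10 was 0.0018, with a 95% interval of −0.17 to 0.17. Outside the set, the PRC1 subunit Yaf2 also separated all fusions from the vector, with all fusion arrays below all MIG arrays. Its log2 change was −0.33 for the minimal fusion, −0.27 for CALM-AF10 and −0.30 for ΔOM-LZ (limma adjusted p = 0.575, 0.977 and 0.999).

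Rnf2, which encodes the other E3 ligase, RING1B, read 9.82, 9.88 and 9.46 in minimal fusion arrays and 9.91, 9.65 and 10.28 in CALM-AF10 arrays. It read 9.77, 9.31 and 9.99 in ΔOM-LZ arrays, against 9.79, 10.06 and 10.30 in MIG arrays. Arrays of all constructs overlapped. The estimates against MIG were −0.33 for the minimal fusion, −0.10 for CALM-AF10 and −0.36 for ΔOM-LZ (SE 0.215), opposite in sign to those of Ring1.

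The CBX proteins bring PRC1 to the H3K27 methyl mark through a chromodomain. Cbx2 read 8.46, 8.20 and 8.47 in minimal fusion arrays, 8.74, 8.47 and 8.70 in CALM-AF10 arrays, 8.61, 8.25 and 8.39 in ΔOM-LZ arrays, and 8.49, 8.23 and 8.43 in MIG arrays. CALM-AF10 had the highest mean, 0.26 above MIG (SE 0.128, unadjusted p = 0.0713, adjusted p = 0.9997), and overlapped every other group. Cbx7, known for holding stem cells in self-renewal, read 7.94, 7.49 and 7.75 in minimal fusion arrays, 8.0, 7.68 and 8.27 in CALM-AF10 arrays, 7.81, 7.61 and 7.89 in ΔOM-LZ arrays, and 7.70, 7.76 and 8.06 in MIG arrays. Its groups overlapped throughout, and the changes against MIG were −0.11, 0.14 and −0.069 for the minimal fusion, CALM-AF10 and ΔOM-LZ (SE 0.170).

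The signs of the Cbx8 changes against MIG turned on single arrays. It read 7.20, 7.03 and 7.11 in minimal fusion arrays, 6.89, 7.31 and 7.10 in CALM-AF10 arrays, 7.11, 6.92 and 7.08 in ΔOM-LZ arrays, and 7.46, 6.40 and 7.44 in MIG arrays. MIG replicate 2 was the lowest of the 12 and the other MIG arrays the highest. The minimal fusion minus MIG was 0.013 (SE 0.241) with MIG replicate 2 and −0.34 without it, and neither passed the test. Leaving out minimal fusion replicate 1 instead gave −0.033. Phc1, a polyhomeotic protein that links PRC1 particles, read 8.89, 8.41 and 8.57 in minimal fusion arrays, 9.12, 8.44 and 8.86 in CALM-AF10 arrays, 9.20, 8.26 and 8.73 in ΔOM-LZ arrays, and 8.77, 8.40 and 8.93 in MIG arrays. Replicate 2 was the low array in every construct.

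**Figure D2:**
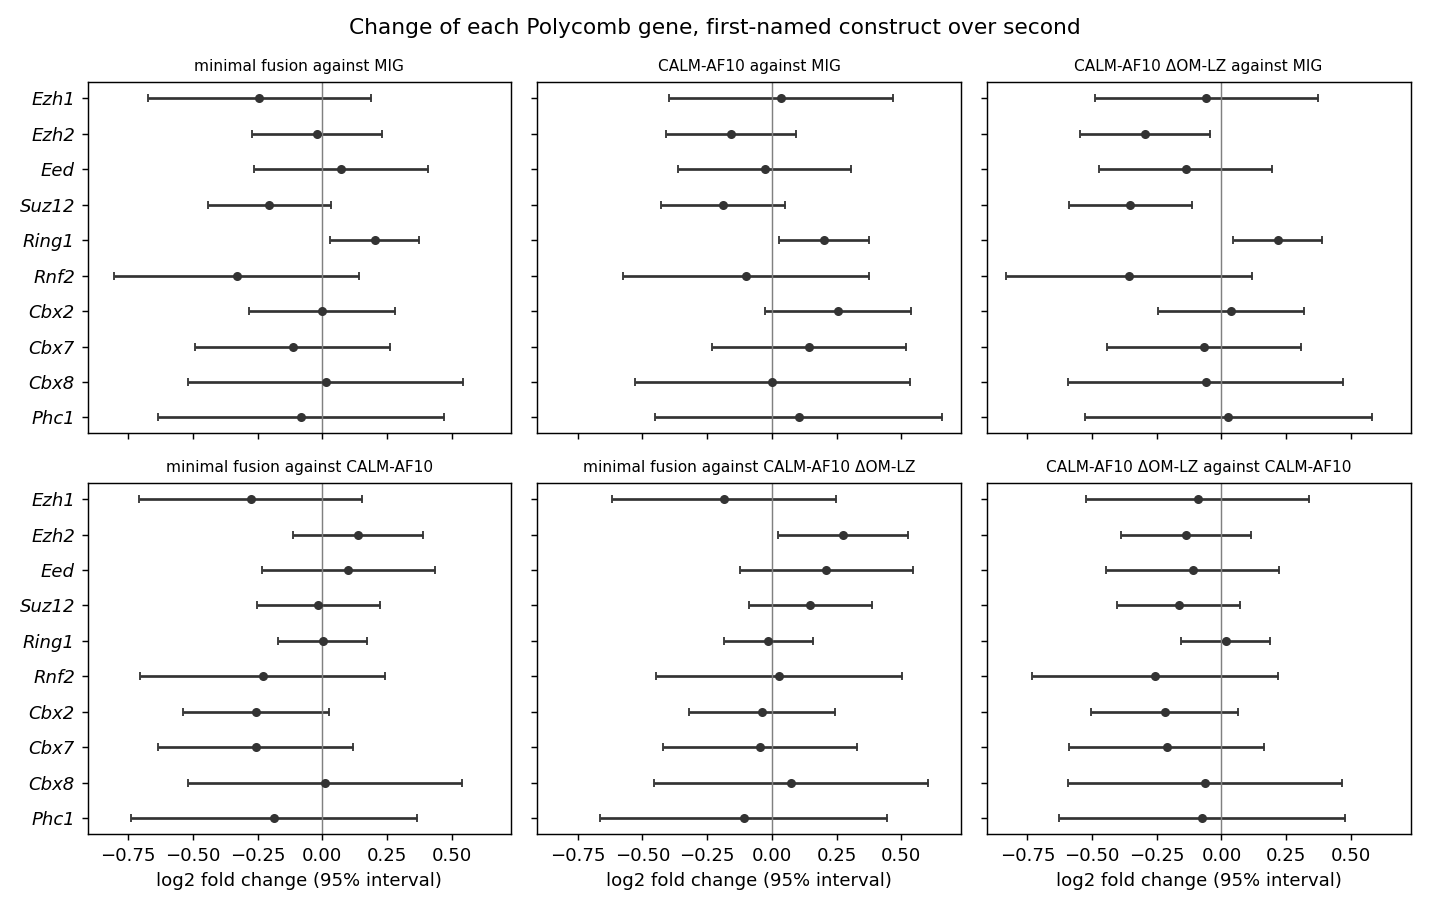
Log2 fold change of each Polycomb gene for the 6 pairs of constructs, first-named over second. Points are estimates and bars 95% intervals from the limma model; the Ring1 intervals against MIG lie above 0, and the Suz12 and Ezh2 intervals for ΔOM-LZ against MIG lie below it, all before adjustment.

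Counted over the set, the share of genes near nominal thresholds was as follows. For the minimal fusion against MIG, 1 of 10 had an unadjusted p under 0.05 and 1 did not overlap between groups, against 7.61% and 12.1% of all probe sets. CALM-AF10 against MIG gave 1 and 2, against 5.26% and 9.31%. ΔOM-LZ against MIG gave 3 and 3, the genes Ezh2, Suz12 and Ring1, against 3.96% and 8.04%. These comparisons share the MIG arrays. The minimal fusion against CALM-AF10 gave 0 and 0, against 1.8% and 5.38%. For the minimal fusion against ΔOM-LZ the counts were 1 and 1, against 4.1% and 7.78%. ΔOM-LZ against CALM-AF10 gave 0 and 0, against 2.26% and 6.76%, in the unpaired model. In a paired limma fit of these arrays alone, Rnf2 and Cbx2 had an unadjusted p under 0.05, against 14.2% of all probe sets, with adjusted p = 0.276 and 0.304. Constructs with OM-LZ against those without gave 0 and 0, against 6.95% and 0.525%. By the F test 0 genes had an unadjusted p under 0.05, against 4.3%, with Suz12 at 0.0503 and Ring1 at 0.0520.

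Direction was mixed against MIG and mostly downward between ΔOM-LZ and CALM-AF10. The median log2 change of the set was −0.051 for the minimal fusion, 0.018 for CALM-AF10 and −0.065 for ΔOM-LZ against MIG, where the medians of all genes were 0.0078, 0.0074 and 0.0091. In ΔOM-LZ against CALM-AF10, 9 of 10 genes had a negative estimate, with a median of −0.12 against −0.0049 for all genes. Most other lists were also mostly lower there. Lower were 15 of 20 other PRC1 subunits (median −0.14) and 9 of 12 PR-DUB and demethylase genes (median −0.064). So were 9 of 10 HOXA genes (median −0.18) and 6 of 10 other PRC2 subunits (median −0.048). The 4 measured cell cycle inhibitor genes went the other way, all higher in ΔOM-LZ (median 0.14). Replicate numbers paired these arrays, and Eed, Suz12, Rnf2, Cbx2 and Cbx7 were lower in ΔOM-LZ in all 3 pairs. That is 5 of 10, against 23.1% of probe sets. Rnf2 differed by −0.14, −0.35 and −0.28 in the pairs, and in the paired fit, added after the data were seen, its adjusted p was 0.276.

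The genes differed in what their spread followed. Between constructs lay 81.8% of the variance of Ring1, 62.8% of Suz12 and 55.8% of Ezh2, against a median of 22.2% over all genes. Between replicate numbers lay 78.4% of the variance of Phc1, 53.5% of Cbx2 and 51.6% of Cbx7, against a median of 22.2%. The SD within constructs ran from 0.052 for Ring1 to 0.34 for Phc1.

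Ezh1 and Ezh2 were set against a cell cycle score of 29 measured genes that held neither. Over the 12 arrays Ezh1 fell as the score rose (Pearson r = −0.91, permutation p = 0.00021, adjusted over 3 relations 0.00063; Spearman rho = −0.84, permutation p = 0.00132, adjusted 0.00396). The permutations treat the 12 arrays as exchangeable and take no account of shared constructs or of the paired ΔOM-LZ and CALM-AF10 arrays, so these p-values may be too small. Without the 2 arrays farthest from the median score, minimal fusion replicate 2 and MIG replicate 1, r was −0.90, and within constructs it was −0.92. How many of all genes follow the score this closely was not counted. In each construct the array with the highest cell cycle score had the lowest Ezh1 value. It also had the highest neutrophil primary granule score (5 of 6 genes measured). A link of Ezh1 particular to the cell cycle genes was not tested. Ezh2 rose with the cell cycle score (r = 0.67, permutation p = 0.0187, adjusted 0.028, and rho = 0.72, permutation p = 0.0104, adjusted 0.0156). Without minimal fusion replicate 2 and MIG replicate 1, r of Ezh2 was 0.43 on 10 arrays (permutation p = 0.216). Leaving them out also narrows the range of the score, so this cannot show whether the Ezh2 relation rests on them. Within constructs r was 0.73. The 2 genes related to each other with r = −0.39 (permutation p = 0.213, adjusted 0.213; rho = −0.32, permutation p = 0.308, adjusted 0.308), and with r = −0.22 without ΔOM-LZ replicate 1 and MIG replicate 1.

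**Figure D3:**
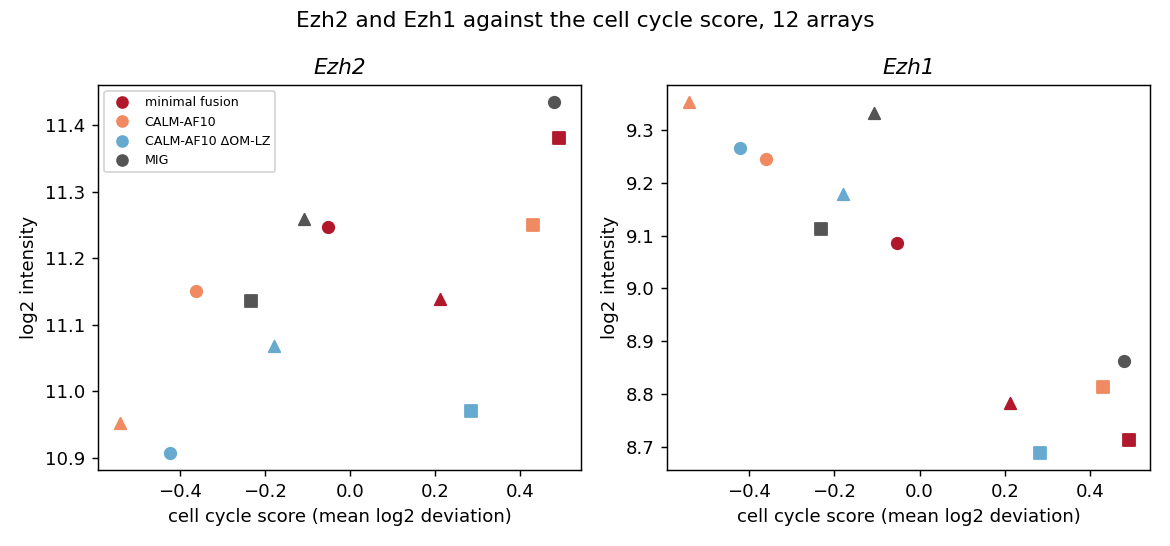
Log2 intensity of Ezh2 (left) and Ezh1 (right) against the cell cycle score, the mean log2 deviation of 29 genes, on 12 arrays coloured by construct. Ezh1 is lower on arrays with a high score (r = −0.91), and Ezh2 is higher on them (r = 0.67).

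Arrays also grouped the genes with each other. Of the 45 pairs of Polycomb genes, 31 had r above 0 over the 12 arrays, with a median of 0.22. Ezh1 went with Cbx7 (r = 0.87), Phc1 (r = 0.78) and Rnf2 (r = 0.78), and Ezh2 with Suz12 (r = 0.69). Ring1 ran against Suz12 (r = −0.62) and Rnf2 (r = −0.60). Within constructs, r of Ring1 was 0.076 with Suz12 and −0.62 with Rnf2, and r of Ezh2 with Suz12 was 0.48. These are descriptions over arrays that share constructs and scaling. Over all genes, the most similar to Ezh2 were Mbd4 (r = 0.95) and Brca2 (r = 0.93), to Ezh1 Samsn1 (r = 0.98) and Slc3a2 (r = 0.98), to Eed Pcgf6 (r = 0.93) and Orc4 (r = 0.91), and to Suz12 Pign (r = 0.90) and Cep192 (r = 0.88). For PRC1 they were Snord53 (r = 0.93) and Zfp784 (r = 0.91) for Ring1, Zfp617 (r = 0.98) and Gtpbp8 (r = 0.98) for Rnf2, and Use1 (r = 0.91) and Rpl12 (r = 0.90) for Cbx2. Cbx7 was most like Spred3 (r = 0.96) and Ppcdc (r = 0.95), Cbx8 like Pgghg (r = 0.86) and Med12 (r = 0.85), and Phc1 like Sfxn4 (r = 0.96) and Rab4a (r = 0.94).

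**Figure D4:**
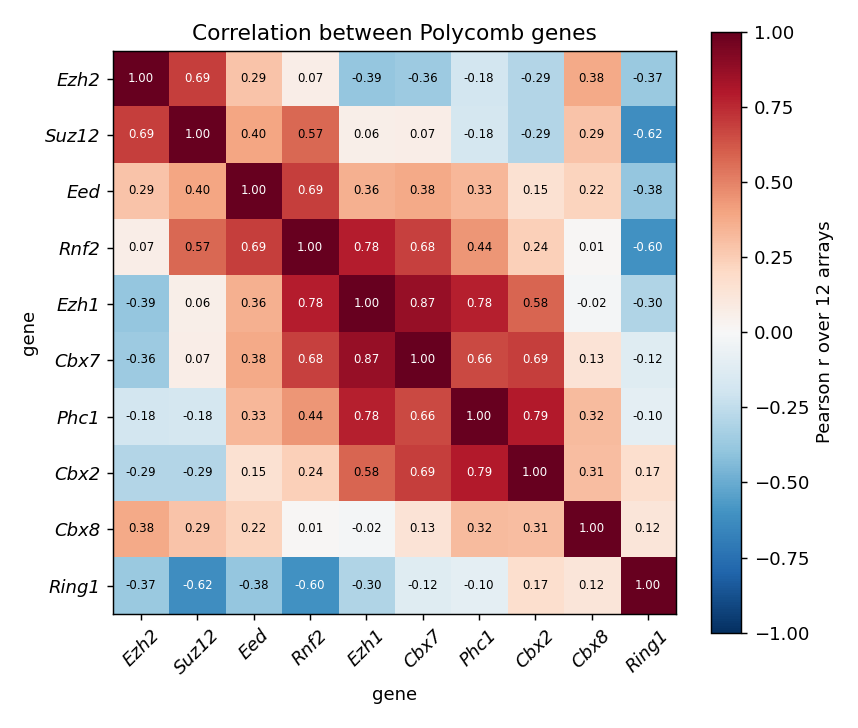
Pearson r between each pair of Polycomb genes over the 12 arrays; red is positive and blue negative. Ezh1, Cbx7, Phc1, Rnf2 and Cbx2 are all positive with each other, down to r = 0.24 for Rnf2 with Cbx2. Eed is also positive with each of them, down to r = 0.15 with Cbx2. Ring1 is negative with Suz12 (r = −0.62), but not within constructs (r = 0.076).

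Further genes of the pathway were also not called in any comparison. This held for 10 of 10 measured other PRC2 subunits and 20 measured of 22 other PRC1 subunits. It also held for 12 measured of 13 PR-DUB and H3K27 demethylase genes, and 4 measured of 5 cell cycle inhibitor genes. The PR-DUB list holds enzymes that reverse the Polycomb marks, and partners of PR-DUB. By F test the leading PRC2 gene was Jarid2, a cofactor that helps PRC2 find chromatin. It read 10.27, 10.13 and 10.22 in minimal fusion arrays, against 10.38, 10.51 and 10.49 in MIG arrays, without overlap (log2 change −0.25, SE 0.090, adjusted p = 0.555). Lcor, whose locus also encodes a PRC2 partner, was 0.21 higher in ΔOM-LZ than in MIG (SE 0.077, adjusted p = 0.999). Among PRC1 genes, Scml4 read 6.80, 6.81 and 7.01 in minimal fusion arrays, against 6.10, 6.54 and 6.49 in ΔOM-LZ arrays (log2 change 0.50, SE 0.124, adjusted p = 0.561). Those ΔOM-LZ values lay below every array median (6.58 to 6.69). E2f6, a repressor found in a variant PRC1, differed by 0.31 between constructs with OM-LZ and those without (SE 0.095, adjusted p = 0.501).

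Bmi1, a PCGF subunit of canonical PRC1, read 8.36, 8.37 and 7.91 in minimal fusion arrays and 8.12, 7.94 and 8.68 in CALM-AF10 arrays. It read 8.07, 7.67 and 8.18 in ΔOM-LZ arrays, and 7.91, 8.15 and 7.87 in MIG arrays. The groups overlapped, and the minimal fusion minus MIG was 0.24 (SE 0.208, adjusted p = 0.833). Of the PR-DUB list, Mbd6 and Asxl3 led with unadjusted F-test p of 0.262 and 0.375. Asxl3 ran from 4.66 to 5.20, below every array median. Of the inhibitors, Cdkn2c was −0.60 in CALM-AF10 against MIG (SE 0.229, adjusted p = 0.866), and Cdkn2b was 0.47 in ΔOM-LZ against CALM-AF10 (SE 0.257, adjusted p = 0.9999).

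The HOXA genes are known Polycomb targets. In the minimal fusion, 4 of 10 measured HOXA genes were called higher than in MIG (Hoxa3, Hoxa6, Hoxa9 and Hoxa10). Hoxa3 read 5.43, 5.56 and 5.51 in MIG arrays, below every array median. The list median was 1.16, against −0.051 for the Polycomb set. All 10 estimates were positive, and 8 had an unadjusted limma p under 0.05, against 7.61% of all probe sets. With a replicate block 1 HOXA gene, Hoxa9, was called, with the 6 arrays fitted alone 0 were, and leaving out 1 array of the 12 called 1 to 5. Against ΔOM-LZ 3 HOXA genes were called higher in the minimal fusion, and against CALM-AF10 1 was. In both, all 10 estimates were positive and 7 had an unadjusted p under 0.05, against 4.1% and 1.8% of all probe sets. The counts of called genes were 2 and 0 with a replicate block, and 0 and 0 with the groups fitted alone. Hoxa9 read 9.94, 10.09 and 10.13 in minimal fusion arrays, against 8.74, 8.44 and 8.81 in MIG arrays (log2 change 1.39, SE 0.106, adjusted p = 0.0013). In that comparison the Polycomb estimates ran from −0.33 to 0.20.

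**Figure D5:**
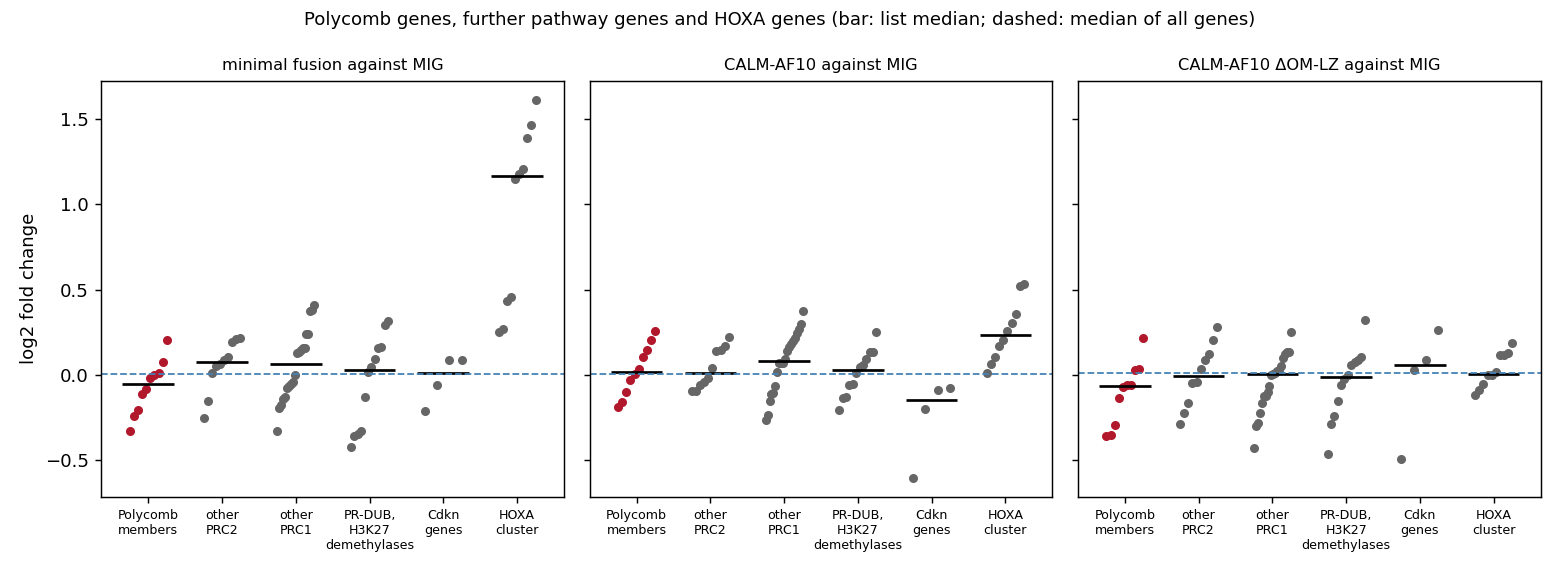
Log2 fold change of single genes in 6 lists, for each fusion against MIG. Bars are list medians and the dashed line is the median of all genes; the HOXA median is 1.16 for the minimal fusion, and the Polycomb medians lie between −0.065 and 0.018.

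Markers of the labelled bone marrow were read on the same arrays, without detection calls. Of the myeloid and progenitor markers, Mpo ran from 12.10 to 13.38 log2 units, Elane from 9.94 to 13.20, Kit from 9.86 to 11.21 and Cd34 from 10.84 to 12.43. The T cell marker Cd3e ran from 5.92 to 6.46 and the B cell marker Cd79a from 4.4 to 4.88. Col1a1, a fibroblast gene that the producer line could bring, ran from 7.0 to 7.74.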

How the data were processed

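The authors deposited log2 intensities, a value for each probe set on each array. The submitters' processing notes name Affymetrix Expression Console; version, summarization and normalization are not stated there, and the values themselves show a log2 scale. Values ran from 2.88 to 14.27. Of 35556 probe sets, 23410 had a gene symbol in the platform annotation and were tested, 1621 of them with several symbols. Groups follow the labels, with 3 arrays each; this number limits precision.

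One limma 3.58.1 model in R 4.3.3 (lmFit, eBayes) held 1 mean per construct and left 8 residual degrees of freedom; p-values were two-sided and Benjamini-Hochberg adjusted over the 23410 probe sets. The test was tried on simulated data. Correlations used two-sided permutation tests with 100000 permutations in SciPy 1.17.1. The members and lists were chosen with earlier results of these data known. Named genes were all members, the 2 list genes with the smallest F-test p, any list gene called, Bmi1, and the 2 genes most like each member. Yaf2 was named because it separated the fusions from MIG as Ring1 did.

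Replicate numbers were checked by correlating deviations of same-numbered arrays from their construct means. ΔOM-LZ and CALM-AF10 correlated in all 3 pairs (r = 0.70 to 0.73), so these numbers pair the arrays, from the data and not the labels. No other pair of constructs exceeded 0.1 throughout, but single replicate numbers did. For replicate 1 the minimal fusion correlated with CALM-AF10 (r = 0.72) and with ΔOM-LZ (r = 0.62). MIG replicate 1 ran against replicate 1 of every fusion (r = −0.60 to −0.47). For replicate 2 the minimal fusion and CALM-AF10 gave r = 0.39. Alternatives were other scalings, variance models, filters and probe set rules, a replicate block, groups alone, and leaving out each array.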

Additional observations from a re-analysis of the deposited data

How the results depend on the processing

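Under all alternatives, 159 counts in all, 0 of 10 Polycomb genes were called, and the lowest adjusted p of a member was 0.276, for Rnf2 in the fit with a replicate block of the 6 ΔOM-LZ and CALM-AF10 arrays, which was chosen after seeing the data (log2 change −0.26). The replicate block in the 12-array fit changed no call of a member. The correlation of Ezh2 with the cell cycle score fell to 0.427 without its 2 extreme arrays, and the cause was not tested.

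Of 1590 member values under alternatives, 90 changed sign, in 37 of 80 results, none of them called. Both totals include F-test results, which carry no sign. Other variance models, probe set filters, the replicate block and groups alone left each estimate as it was, as did leaving out an array of a construct not compared. The counts therefore do not measure how stable the signs were. The reported value was at most 0.14 in size in each result that changed sign, and beyond the arrays left out the cause was not tested. With median centring the log2 change was 0.023 for Ezh2 and 0.043 for Cbx2 (minimal fusion against MIG), 0.017 for Suz12 (minimal fusion against CALM-AF10), 0.021 for Ring1 (minimal fusion against ΔOM-LZ), and 0.0026 for Suz12 and 0.020 for Phc1 (constructs with OM-LZ against those without). With quantile normalization it was 0.035 for Cbx2 (minimal fusion against MIG) and 0.025 for Suz12 (minimal fusion against CALM-AF10). With the mean of both Eed probe sets it was 0.15 for CALM-AF10 and 0.061 for ΔOM-LZ against MIG, and −0.043 for the minimal fusion against CALM-AF10. The dimmer probe set, which lay below every array median, has the other sign.

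Leaving out 1 array gave these ranges. For the minimal fusion against MIG they were −0.076 to 0.089 for Cbx2, −0.22 to 0.0041 for Cbx7, −0.34 to 0.19 for Cbx8, −0.027 to 0.14 for Eed, −0.091 to 0.058 for Ezh2 and −0.23 to 0.033 for Phc1. For CALM-AF10 against MIG they were −0.35 to 0.18 for Cbx8, −0.16 to 0.098 for Eed, −0.085 to 0.20 for Ezh1, −0.053 to 0.29 for Phc1 and −0.26 to 0.047 for Rnf2. For ΔOM-LZ against MIG they were −0.058 to 0.12 for Cbx2, −0.14 to 0.044 for Cbx7, −0.41 to 0.12 for Cbx8, −0.18 to 0.12 for Ezh1 and −0.21 to 0.26 for Phc1. For the minimal fusion against CALM-AF10 they were −0.094 to 0.11 for Cbx8, −0.026 to 0.23 for Eed, −0.024 to 0.043 for Ring1 and −0.083 to 0.065 for Suz12. For the minimal fusion against ΔOM-LZ they were −0.12 to 0.058 for Cbx2, −0.15 to 0.073 for Cbx7, −0.34 to 0.13 for Phc1, −0.040 to 0.020 for Ring1 and −0.17 to 0.18 for Rnf2. For ΔOM-LZ against CALM-AF10 they were −0.17 to 0.040 for Cbx8, −0.24 to 0.022 for Eed, −0.25 to 0.086 for Ezh1, −0.31 to 0.16 for Phc1 and −0.0064 to 0.058 for Ring1. For constructs with OM-LZ against those without they were −0.022 to 0.12 for Cbx7, −0.14 to 0.13 for Cbx8, −0.16 to 0.0060 for Ezh1, −0.12 to 0.11 for Phc1, −0.13 to 0.038 for Rnf2 and −0.054 to 0.020 for Suz12.

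Calls over all probe sets were few and moved more. The minimal fusion against MIG called 8, but 20 with unnamed probe sets included, 1 with the replicate block, 0 with groups alone and 1 to 9 leaving out 1 array. Against ΔOM-LZ it called 4, but 17, 3, 0 and 1 to 5 in the same order, and 8 with trend and robust variance. Against CALM-AF10 it called 1, but 3, 0, 0 and 0 to 1. CALM-AF10 against MIG called 0, or 1 with unnamed probe sets, and ΔOM-LZ against MIG 0, or 2, and 0 to 4 leaving out 1 array (CALM-AF10 against MIG 0 to 1). Constructs with OM-LZ against those without called 3, but 5 with unnamed probe sets 1 with the block and 1 to 6 leaving out 1 array; the F test called 2, but 12, 1 and 0 to 3, and 4 after quantile normalization.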
